A study of Mus musculus with 7 samples.

Results

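The miR-15/16 family was followed through soft tissue sarcoma cells of p53 knocked out mice, in which the retinoblastoma protein Rb was depleted by a short hairpin RNA (shRNA). Its members were every mature miRNA from the hairpins of miR-15a, miR-15b, miR-16, miR-195, miR-322, miR-497 and miR-503, in either arm. The array carried 696 mouse miRNAs, 12 of them members. Of the 252 miRNAs that the normalized table held, 8 were members. Of the other 4 arms, 1 was detected on some arrays and 3 on none.

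Tumour cells were dissociated, grown as a monolayer in serum, transduced with a Non-target shRNA or an Rb shRNA (shRb) and selected with puromycin. Control primary cells (Non-target shRNA, 2 arrays) and Rb-depleted primary cells (shRb, 2 arrays) came from the monolayer. Rb-depleted secondary cells (shRb, 3 arrays) had formed spheres in serum-free methylcellulose with B27, EGF and bFGF, and the spheres had been returned once to monolayer culture. All 3 groups therefore lacked p53 and had been through transduction and puromycin, both Rb-depleted groups carried the same single shRNA, and secondary control cells were not analysed here. A miRNA array does not measure the Rb transcript, so the depletion could not be checked on these arrays. The replicates are described as independent experiments, and p-values measure the spread between these arrays.

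A miRNA guides the silencing complex to messenger RNAs mainly by base pairing of its seed, the bases near its 5′ end. Members of the miR-15/16 family share a seed or nearly so, and are known to repress cyclin D1, cyclin E, other drivers of the G1 to S transition and the survival factor BCL2. In quiescent and differentiating cells miR-322 and miR-503 are known to rise and to restrain proliferation, and the locus of miR-15a and miR-16-1 is a known tumour suppressor in lymphocytes.

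The mature sequences of the 7 main arms follow, from RefSeq (GRCm38.p6), since the seed (bases 2 to 8, capitals) is what defines the family and the 3′ part is what lets the array tell its members apart. All 12 members on the array were found in the RefSeq table.
miR-15a: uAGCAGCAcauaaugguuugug
miR-15b: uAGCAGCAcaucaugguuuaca
miR-16: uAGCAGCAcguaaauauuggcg
miR-195: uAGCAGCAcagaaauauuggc
miR-497: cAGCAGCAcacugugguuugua
miR-322: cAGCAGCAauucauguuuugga
miR-503: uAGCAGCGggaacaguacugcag
The first 6 held the seed AGCAGCA, which was found in 10 of 1679 mature entries of the table. miR-503 ended its seed with another base, AGCAGCG, found in 1 entry. The closest pair was miR-16 and miR-195, at 3 edits, followed by miR-15a and miR-15b at 4 edits, whereas miR-322 and miR-503 stood 11 edits apart although their hairpins are neighbours. Signal shared between such near-identical members by cross-hybridization was not tested.

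The hairpins lie at 4 places in the mouse genome (NCBIM37). The miR-15a arm (chr14:62250912-62250933, minus strand) and Mir16-1 (chr14:62250717-62250809, minus strand) are in introns of Dleu2. Mir15b (chr3:68813694-68813757, plus strand) and Mir16-2 (chr3:68813824-68813918, plus strand) are in introns of Smc4, a condensin subunit, and mature miR-16 is the product of both Mir16-1 and Mir16-2. Mir497 (chr11:70048219-70048302, plus strand) and Mir195 (chr11:70048544-70048637, plus strand) are 241 bases apart with no annotated host gene. Mir322 (chrX:50407432-50407526, minus strand) and Mir503 (chrX:50407161-50407231, minus strand) are 200 bases apart, head a cluster of 6353 bases that ends with Mir450b, and have no annotated host gene.

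Each value below is either the deposited level, a log2 signal after quantile normalization, or the scanner signal, the linear total gene signal of the array before normalization. Of the mouse miRNAs, 258 to 287 were detected per array, and the summed signal of the tabled miRNAs ran from 432616 to 550498, lowest in Rb-depleted primary replicate 2. Markers of mesenchymal cells were detected on all arrays (6 of 6), and those of epithelial cells (0 of 10) and blood cells (0 of 6) on none. By limma 5 of 6 mesenchymal markers were called higher in secondary than in primary Rb-depleted cells, beside 12.7% of all miRNAs, and 2 of 6 higher than in control, beside 13.1%. Of the 2 endothelial arms, miR-126-3p was detected on the 4 primary arrays (10.73, 9.84, 9.10 and 7.02) and on no secondary array, and miR-126-5p on none. The part of these markers in the results below was not tested. The array barcodes name 2 slides: the 4 primary arrays and secondary replicate 1 on the first, and secondary replicates 2 and 3 on the second, so slide and sphere passage were partly confounded. Without normalization the median miRNA of the 252 stood at -0.26 (log2) in Rb-depleted primary and -0.46 in Rb-depleted secondary cells against control, and at -0.18 in secondary against primary Rb-depleted cells, so that deposited differences are relative to that shift. The scanner's own error on a tabled member's signal was 7.09 to 18.4% of it.

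The family was among the brighter miRNAs of these cells. By mean deposited level over the 7 arrays, miR-16 ranked 24 of 252 and miR-15b 28, and miR-15a (51), miR-497 (60), miR-195 (69) and miR-322 (76) were in the upper part of the table. miR-503 (177) and the passenger arm miR-15b* (212) were low. Probes differ between miRNAs, so this order is an order of signal and not of molecule number. The control levels of the leading pair, miR-16 (11.36 ± 0.036, SD, n = 2) and miR-15b (11.04 ± 0.33, SD, n = 2), differed by no more than the SD of miR-15b.

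Rb depletion alone moved no member past the test, and in sphere-derived cells 1 member did. miR-15a was higher in Rb-depleted secondary than in control primary cells by 0.75 on the log2 scale (SE 0.197, 95% interval 0.26 to 1.24, limma adjusted p = 0.0461). The miRNAs of the X chromosome pair, miR-322 and miR-503, had the lowest differences of the family in the same comparison, at -0.58 and -1.01, neither of which passed. In Rb-depleted primary against control cells 0 of 8 members were called by limma, beside 1.59% of all 252 miRNAs (0.397% higher and 1.19% lower), and 1 of 8 had an unadjusted p under 0.05, beside 25.4%. In secondary against control cells 1 of 8 was called, as higher, beside 22.6% of all miRNAs (13.1% higher and 9.52% lower), and 2 of 8 had an unadjusted p under 0.05, beside 36.5%. In secondary against primary Rb-depleted cells 0 of 8 were called, beside 20.2% (12.7% higher and 7.54% lower), and 1 of 8 had an unadjusted p under 0.05, beside 40.5%. With 8 members these counts do not set the family apart from the table.

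**Figure D1:**
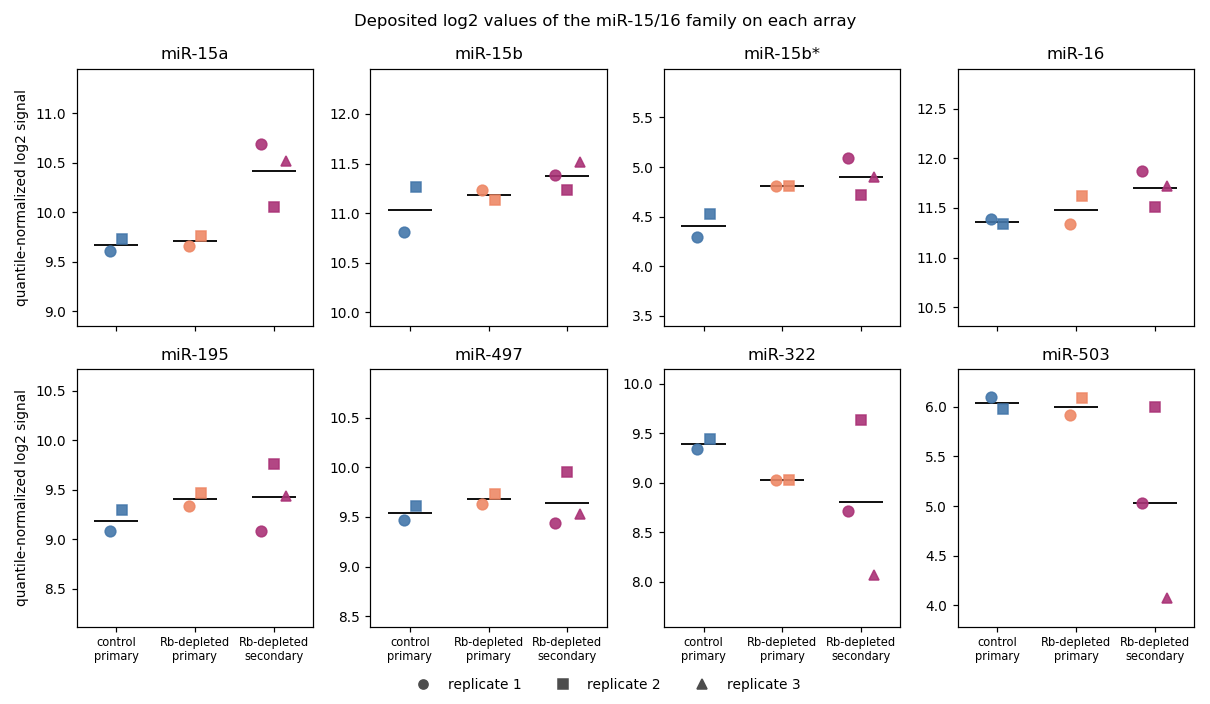
Deposited log2 level (y axis, 1 range length in all panels) of the 8 tabled members on each array, by group. Points are arrays, shapes are replicate numbers and lines are group means. miR-15a is the member whose 3 secondary arrays all stand above the 4 primary arrays, and miR-322 and miR-503 spread most among the secondary arrays.

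The locus of miR-15a and miR-16-1 came first, since miR-15a can come from there alone. Deposited levels of miR-15a were 9.61 and 9.73 in control, 9.66 and 9.76 in Rb-depleted primary, and 10.69, 10.05 and 10.52 in secondary cells. The secondary arrays did not overlap with either primary group, while the 2 primary groups interleaved. The difference of Rb-depleted primary from control cells was 0.04 (SE 0.216, limma adjusted p = 0.939), and that of secondary from primary Rb-depleted cells 0.71 (SE 0.197, limma adjusted p = 0.0581), which missed the threshold. Scanner signals were 884 and 991 in control, 886 and 825 in Rb-depleted primary, and 1329, 954 and 1155 in secondary cells. On that scale secondary replicate 2 fell between the controls, and the difference from control was 0.28 (limma adjusted p = 0.200), still above the median miRNA. Both probes for miR-15a gave nearly the same difference, 0.27 and 0.28. The call was lost without each array in turn except secondary replicate 2: adjusted p (limma) was 0.237 and 0.143 without control replicates 1 and 2, 0.0753 without either Rb-depleted primary replicate, and 0.101 and 0.121 without secondary replicates 1 and 3. With slide as a term the difference was 1.02. That value rests on secondary replicate 1 alone, the only secondary array on the first slide, which stood above all 4 primary arrays.

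For miR-16 the secondary cells were also the highest group, by less. Its deposited levels were 11.39 and 11.34 in control, 11.34 and 11.62 in Rb-depleted primary, and 11.88, 11.51 and 11.72 in secondary cells. The secondary arrays lay above the controls and overlapped with Rb-depleted primary replicate 2. The difference of secondary from control cells was 0.34 (SE 0.143, limma adjusted p = 0.145), and its sign turned without normalization (-0.047). Scanner signals of miR-16 were within 2354 to 3149 on all arrays, with both ends of that range in secondary cells. Within an array, miR-15a minus miR-16 was -1.78 and -1.61 in control, -1.67 and -1.86 in Rb-depleted primary, and -1.19, -1.46 and -1.203 in secondary cells (log2, deposited). This gap was thus narrower on each secondary array than on each primary one, by 0.41 against control and 0.48 against Rb-depleted primary cells. An exact permutation test over arrays, two-sided, gave p = 0.2 for both (adjusted p = 0.714 over the 15 differences tested between members). That is the smallest p this test can give with these numbers of arrays, so no gap could have passed. The same differences from the scanner signals, on which a factor common to the array cancels, were 0.33 and 0.48. Over the 7 arrays the levels of miR-15a and miR-16 had r = 0.90, a description of points that share labelling and normalization.

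At the locus of miR-15b and miR-16-2 the differences were small. Deposited levels of miR-15b were 10.80 and 11.27 in control, 11.23 and 11.13 in Rb-depleted primary, and 11.39, 11.23 and 11.51 in secondary cells. All 3 groups overlapped. The difference from control was 0.14 (limma adjusted p = 0.633) in Rb-depleted primary and 0.34 (SE 0.164, limma adjusted p = 0.185) in secondary cells. Scanner signals of miR-15b were 2121 and 2728 in control, 2588 and 2329 in Rb-depleted primary, and 2559, 2158 and 2740 in secondary cells, so that the control replicates spanned nearly the whole range. The gap between miR-15b and miR-16 differed by -0.0037 between secondary and control cells (exact permutation test, p = 1).

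The passenger arm of the same hairpin, miR-15b*, was read at the low end of the array. Its sequence has another seed, which is shown because the arm is not expected to pair with the targets of the family.
miR-15b*: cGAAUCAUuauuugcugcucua
Deposited levels were 4.30 and 4.52 in control, 4.81 and 4.81 in Rb-depleted primary, and 5.09, 4.72 and 4.90 in secondary cells. Both Rb-depleted groups lay above the controls, by 0.40 (SE 0.148, limma adjusted p = 0.169) and 0.49 (SE 0.135, limma adjusted p = 0.0523), and neither passed. Its scanner signals, however, were 25.2 and 30.2 in control, 29.7 and 26.3 in Rb-depleted primary, and 29.99, 21.4 and 26.1 in secondary cells. The groups overlapped there, the secondary difference turned to -0.11 without normalization, and 2 of the 4 probes for this arm gave signals near 0 on every array.

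In all, 4 of 8 members had arrays of Rb-depleted primary cells that did not overlap with control (miR-15b*, miR-195, miR-497 and miR-322), beside 57.5% of all miRNAs. Secondary cells did not overlap with control for 3 members (miR-15a, miR-15b* and miR-16), beside 52.0%, and with Rb-depleted primary cells for miR-15a only, beside 51.2%. Differences of the members had medians of 0.13 in Rb-depleted primary against control, 0.29 in secondary against control and 0.06 in secondary against primary Rb-depleted cells, next to 0.01, 0.03 and 0.02 over all 252 miRNAs. The first 2 comparisons share the control arrays, and 6 of 8 members were higher in each, beside 50.4% and 53.6% of all miRNAs. Without normalization 3 and 2 of 8 were higher, with member medians of -0.055 and -0.19 beside -0.26 and -0.46 over all miRNAs. In the moderated F-test over the 3 groups, 2 of 8 members (miR-15a, adjusted p = 0.0573, and miR-15b*, adjusted p = 0.0815, limma) were under the 0.1 that the study used, beside 43.3% of all miRNAs, and 0 were under 0.05, beside 20.2%. After Dunnett's adjustment 0 of 8 members differed from control in both Rb-depleted groups, beside 6.75%. For miR-15a the adjusted p of that step was 0.972 in Rb-depleted primary and 0.0179 in secondary cells (limma statistics), and for miR-15b* it was 0.0672 and 0.0211.

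**Figure D2:**
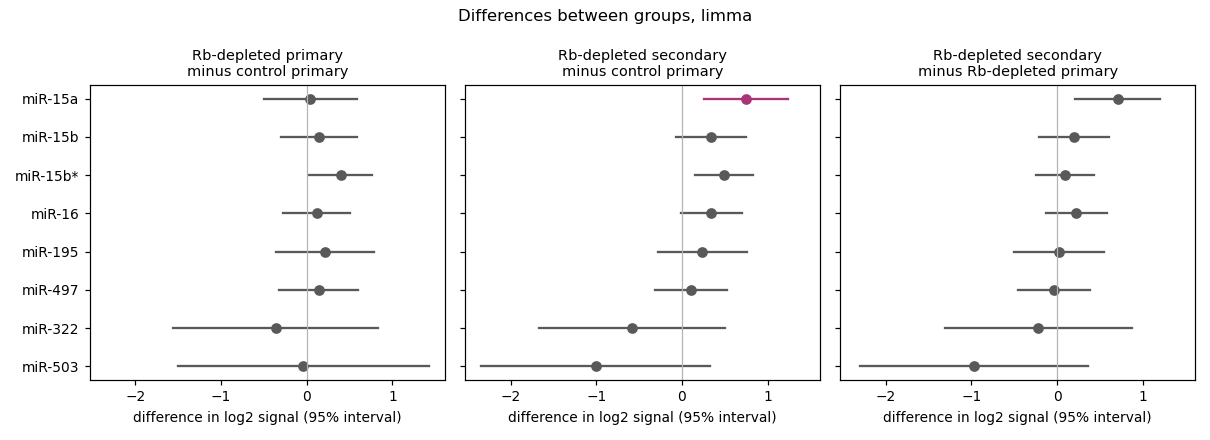
Difference in deposited log2 level between groups (x axis) for the 8 tabled members (y axis) in the 3 comparisons. Points are limma estimates and bars are 95% intervals. The coloured point, miR-15a in Rb-depleted secondary against control primary cells (0.75), is the one past an adjusted p of 0.05, and the bars of miR-322 and miR-503 are the widest.

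The pair on chromosome 11 had the smallest differences of the family between secondary and control cells in deposited levels, though not without normalization. Deposited levels of miR-195 were 9.08 and 9.30 in control, 9.34 and 9.47 in Rb-depleted primary, and 9.08, 9.76 and 9.44 in secondary cells. Those of miR-497 were 9.47 and 9.61 in control, 9.63 and 9.73 in Rb-depleted primary, and 9.44, 9.95 and 9.53 in secondary cells. For both, the Rb-depleted primary arrays lay just above the controls and the secondary arrays spanned the range of all the others. Differences from control in Rb-depleted primary cells were 0.22 for miR-195 (SE 0.229, limma adjusted p = 0.574) and 0.14 for miR-497 (SE 0.185, limma adjusted p = 0.647), and both turned sign without normalization (-0.046 and -0.063). In secondary cells they were 0.24 (limma adjusted p = 0.449) and 0.10 (limma adjusted p = 0.703), and -0.26 and -0.32 without normalization. Over the 7 arrays, which share their normalization, the deposited levels of miR-195 and miR-497 had r = 0.92. The difference between them within an array differed by 0.14 between secondary and control cells (exact permutation test, p = 0.4, adjusted p = 0.75). With so few arrays no difference could have passed that test. Scanner signals of miR-195 were 666 and 784 in control, 725 and 675 in Rb-depleted primary, and 514, 780 and 543 in secondary cells. Those of miR-497 were 831 and 936 in control, 880 and 810 in Rb-depleted primary, and 585, 931 and 641 in secondary cells. In both, secondary replicate 2 matched the primary arrays and the other 2 secondary arrays were lower.

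The pair on chromosome X varied most. Deposited levels of miR-322 were 9.34 and 9.44 in control, 9.02 and 9.02 in Rb-depleted primary, and 8.72, 9.63 and 8.07 in secondary cells. Rb-depleted primary arrays lay below the controls without overlap, while secondary cells held both the highest array of all and the 2 lowest. The difference from control was -0.36 (SE 0.479, 95% interval -1.56 to 0.83, limma adjusted p = 0.647) in Rb-depleted primary and -0.58 (95% interval -1.67 to 0.51, limma adjusted p = 0.389) in secondary cells. Scanner signals of miR-322 were 751 and 848 in control, 573 and 479 in Rb-depleted primary, and 406, 726 and 246 in secondary cells. On that scale all 5 Rb-depleted arrays were below both controls, and both probes gave the same difference of -0.61 in Rb-depleted primary cells. A fit of the 4 primary arrays alone was chosen after the data were seen, because the secondary arrays set the width of the interval above. In it miR-322 differed by -0.36 (SE 0.0654, limma adjusted p = 0.117) in deposited levels, where 0 miRNAs were called. In scanner signals miR-322 differed by -0.61 (limma adjusted p = 0.0270). The call therefore depended on the normalization. The median miRNA stood at -0.26 in that fit of scanner signals, and the share of all miRNAs called was not counted. Without that share, the call cannot tell whether miR-322 stood apart from other miRNAs.

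miR-503 had deposited levels of 6.10 and 5.98 in control, 5.92 and 6.09 in Rb-depleted primary, and 5.03, 6.00 and 4.07 in secondary cells. The primary groups overlapped, secondary replicate 2 lay within them, and the other 2 secondary arrays lay below. The difference from control was -0.04 (limma adjusted p = 0.978) in Rb-depleted primary and -1.01 (SE 0.535, 95% interval -2.34 to 0.33, limma adjusted p = 0.229) in secondary cells. Scanner signals of miR-503 were 84.2 and 81.1 in control, 62.0 and 61.5 in Rb-depleted primary, and 29.2, 55.2 and 14.0 in secondary cells. This order had no overlap between any of the 3 groups, on a scale where the median miRNA also fell. Without normalization the secondary difference was -1.55 (limma adjusted p = 0.0329), and miR-503 then replaced miR-15a as the 1 member called, beside 45.2% of all miRNAs under that setting. Its probes gave -1.49 and -1.21. Inside the pair, miR-322 stood above miR-503 by 3.24 and 3.46 in control, 3.11 and 2.94 in Rb-depleted primary, and 3.69, 3.64 and 3.998 in secondary cells (log2, deposited). The gap was wider on every secondary array than on every primary one, by 0.43 against control and 0.75 against Rb-depleted primary cells. The two-sided exact permutation test gave p = 0.2 for both (adjusted p = 0.714), the smallest p it can give with these numbers of arrays. Across the arrays miR-322 and miR-503 had r = 0.91, as a description of 7 points that share their normalization.

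The calls on this pair turned on secondary replicate 2. Among the 252 miRNAs the SD over the 3 secondary arrays ranked 5 for miR-503 (0.963) and 10 for miR-322 (0.787), against a median SD of 0.153. Without secondary replicate 2, miR-322 differed from control by -0.997 (limma adjusted p = 0.0396) and miR-503 by -1.49 (limma adjusted p = 0.0394), and 4 of 8 members were called, with miR-15a and miR-15b* (0.59, limma adjusted p = 0.0305), beside 29.4% of all miRNAs in that fit. In secondary against primary Rb-depleted cells 2 members were then called, miR-15a (0.89, limma adjusted p = 0.0134) and miR-503 (-1.45, limma adjusted p = 0.0431), beside 26.2% of all miRNAs. Without secondary replicate 3 the differences from control were -0.21 for miR-322 and -0.53 for miR-503, and neither passed. Secondary replicate 2 was the lowest of the 3 secondary arrays for miR-15a, miR-15b, miR-15b* and miR-16 and the highest for miR-195, miR-497, miR-322 and miR-503. Over all 252 miRNAs it was the lowest or the highest of the 3 for 65.1%, next to 54.8% for replicate 1 and 58.3% for replicate 3. This measure ignores the size of a difference, so it cannot tell whether the array stood apart. In secondary against control cells 74 miRNAs were called without it, the most with any 1 array left out, against 57 with all arrays. What set it apart for the family was not tested.

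The neighbours of miR-322 and miR-503 were read from the scanner files, as 1 of 7 arms was in the table. miR-450a-5p, whose seed is unrelated, had scanner signals of 78.2 and 87.3 in control, 47.4 and 43.0 in Rb-depleted primary, and 33.3, 62.1 and 11.5 in secondary cells. All 5 Rb-depleted arrays were below both controls on this scale, in the order that miR-322 also had. Its deposited levels were 6.00 and 6.10 in control, 5.44 and 5.64 in Rb-depleted primary, and 5.23, 6.24 and 3.64 in secondary cells. There secondary replicate 2 was the highest array of all.
miR-450a-5p: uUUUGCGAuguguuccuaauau
Its deposited difference from control was -0.51 (limma adjusted p = 0.706) in Rb-depleted primary and -1.01 (limma adjusted p = 0.362) in secondary cells, where its SD ranked 1 of 252 (1.31). In the fit of the 4 primary arrays alone it differed by -0.87 in scanner signals (limma adjusted p = 0.00337) and by -0.51 in deposited levels (limma adjusted p = 0.133). The share of all miRNAs called in that fit of scanner signals was not counted, so the call there cannot set miR-450a-5p apart from other miRNAs. miR-542-3p was detected at 22.9 and 29.2 in control cells and at 21.5 on secondary replicate 2, and on no other array. miR-351-5p was at 9.3 and 8.1 in control and 6.2 and 4.9 in Rb-depleted primary cells, and among secondary arrays was detected on replicate 2 only (3.8). miR-450a-2-3p was detected on control replicate 1 (10.1) and on both Rb-depleted primary arrays (9.4 and 7.1) but on no secondary array, and miR-450b-5p on secondary replicate 2 only (4.40). The remaining 2 arms, miR-450b-3p and miR-542-5p, were detected on no array. For miR-322, miR-503 and miR-450a-5p secondary replicate 2 was the secondary array nearest to the controls, while the low arms did not share 1 order. Over the 7 arrays, correlations with the level of miR-322 were ranked among the 244 tabled miRNAs outside the family. The highest were those of miR-450a-5p (r = 0.98), the muscle miRNA miR-206 (r = 0.91) and miR-30b (r = 0.90). Of 4 miRNAs of striated muscle, miR-206 was detected on all arrays and the other 3, arms of miR-133a and miR-133b, on none, and the summed scanner signal of the 4 was 46.6 to 47.3 in control, 28.1 to 44.1 in Rb-depleted primary and 13.2 to 36.7 in secondary cells. The part of muscle-like cells in the levels of miR-322 was not tested, and fewer cells of a type and less miRNA per cell cannot be told apart in bulk RNA. Highest in correlation with miR-16 were let-7f (r = 0.96), let-7a (r = 0.92) and miR-574-3p (r = 0.88). All these points share arrays and normalization, and r ignores the height of a level and the size of a change. Deposited levels of miR-574-3p were -0.18 to 3.51, against 11.34 to 11.88 for miR-16.

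**Figure D3:**
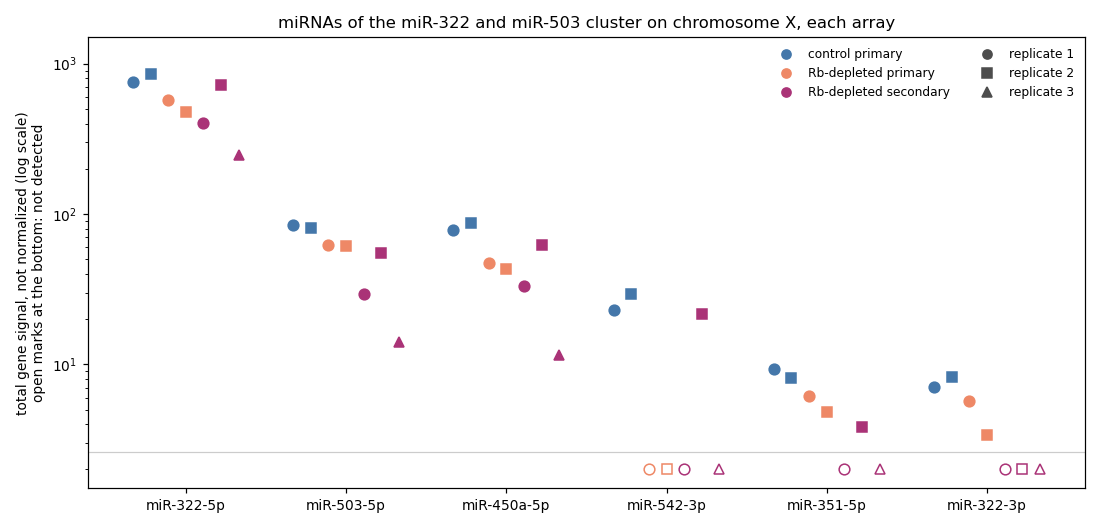
Scanner signal before normalization (y axis, log scale) of miRNAs from the cluster on chromosome X on each array. Filled points are detected signals, open points at the bottom mark arrays without detection, colours are groups and shapes are replicate numbers. For miR-322, miR-503 and miR-450a-5p all 5 Rb-depleted arrays lie below both controls on this scale, on which the median miRNA also fell. Secondary replicate 2 is the highest secondary array for all 3. On deposited levels it is the highest array of all for miR-322 and miR-450a-5p, and lies within the primary arrays for miR-503.

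The passenger arm miR-322-3p was the member outside the table with any detected signal.
miR-322-3p: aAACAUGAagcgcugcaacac
Its scanner signal was 7.1 and 8.2 in control and 5.7 and 3.4 in Rb-depleted primary cells, and it was not detected on any of the 3 secondary arrays. The lowest detected signal of any mouse miRNA was 3.38 to 5.37 per array, so the arm was near the limit in all groups, and a lower level in secondary cells is not separable from loss of detection. With signals under 1 raised to 1 it differed by -2.10 between secondary and control cells, and with a floor of 5 by -0.35. The arm entered these fits through the primary arrays alone, and its secondary values were the floor itself. Its direction was therefore fixed in advance, and no test is drawn from these fits. The size is thus set by the floor and is not a bound. miR-15a-3p, miR-16-1-3p and miR-503-3p were detected on no array.

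Since 6 members share a seed, their scanner signals were also summed. The sum was 8027 and 9276 in control, 8614 and 8003 in Rb-depleted primary, and 8542, 7903 and 8245 in secondary cells, and the groups overlapped. It made up 1.46 to 1.85% of the signal of the table, lowest in control replicate 1. The share of miR-15a in the sum was 11.01 and 10.68% in control, 10.3 and 10.3% in Rb-depleted primary, and 15.6, 12.1 and 14.0% in secondary cells, higher on each secondary array than on each primary one. The share of miR-322 was 9.36 and 9.14% in control, 6.65 and 5.98% in Rb-depleted primary, and 4.75, 9.19 and 2.98% in secondary cells. Rb-depleted primary cells thus had a lower share of miR-322 than control cells, and the secondary arrays spanned both. These shares weight each member by the brightness of its probes and are not shares of molecules.

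**Figure D4:**
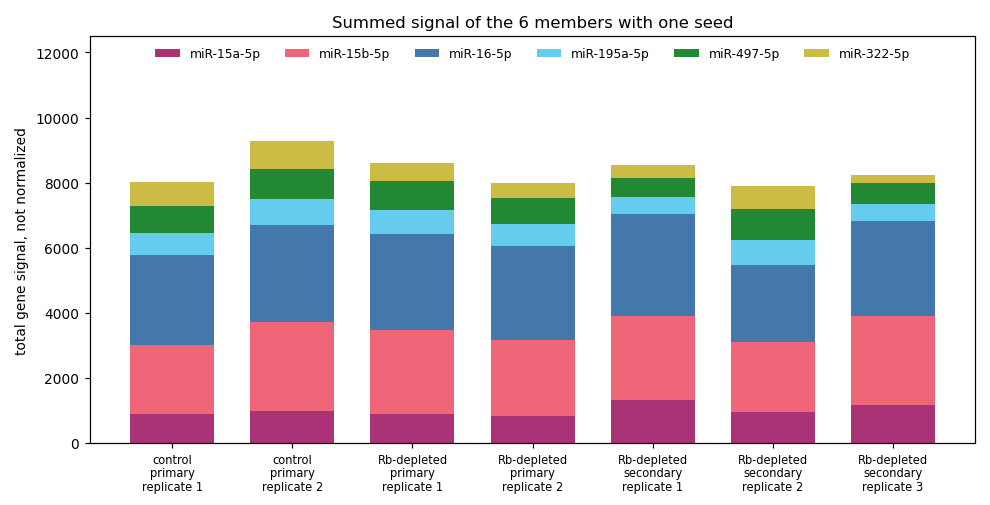
Scanner signal before normalization (y axis) of the 6 members with the seed AGCAGCA, stacked for each array (x axis). The total stays between 7903 and 9276. As a share of the total miR-15a is larger on each secondary array than on each primary one. Its signal on secondary replicate 2 (954) is nevertheless below that on control replicate 2 (991). The part of miR-322 is smallest on secondary replicate 3.

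The relatives miR-103 and miR-107, which carry the same motif shifted by a base, had differences of the opposite sign to miR-15a in the comparisons of secondary cells. They are printed for that shift.
miR-103: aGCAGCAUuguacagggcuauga
miR-107: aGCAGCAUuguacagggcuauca
Scanner signals of miR-103 were 911 and 907 in control, 888 and 760 in Rb-depleted primary, and 582, 506 and 573 in secondary cells. Those of miR-107 were 969 and 1060 in control, 965 and 867 in Rb-depleted primary, and 691, 710 and 658 in secondary cells. For both the secondary arrays were below all 4 primary arrays. The deposited differences of secondary from control cells were -0.25 for miR-103 (limma adjusted p = 0.153) and -0.25 for miR-107 (limma adjusted p = 0.0641), and 0 of 2 passed. Without normalization, where the median miRNA was at -0.46, both passed, beside 45.2% of all miRNAs called. miR-107 also passed with a floor of 5, the classical test and array weights, but not under the other 5 settings that kept all arrays.

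Other lists of miRNAs with a bearing on the cell cycle were counted at an adjusted p under 0.05 (limma). Of 13 tabled miRNAs of the miR-17 and miR-106b clusters, which E2F is known to drive, 0 passed in Rb-depleted primary against control cells and 3 were higher in secondary cells. The let-7 family, known to repress RAS and MYC, had 0 and 1 of 11 higher in the same comparisons, and the miR-34 family, known as p53 targets, 0 and 2 of 3. No miRNA of these 3 lists was called lower. Beside these counts in secondary cells stand 13.1% of all miRNAs called higher and 9.52% called lower. Their median differences in secondary against control cells were 0.30, 0.21 and 1.01, on deposited levels. The summed scanner signal, before normalization, was lower in secondary than in control cells for the miR-17 and miR-106b clusters (10486 to 11351 against 11697 to 13016), overlapped for let-7 (33431 to 37112 against 36871 to 41289) and was higher for miR-34 (396 to 584 against 304 to 362).

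**Figure D5:**
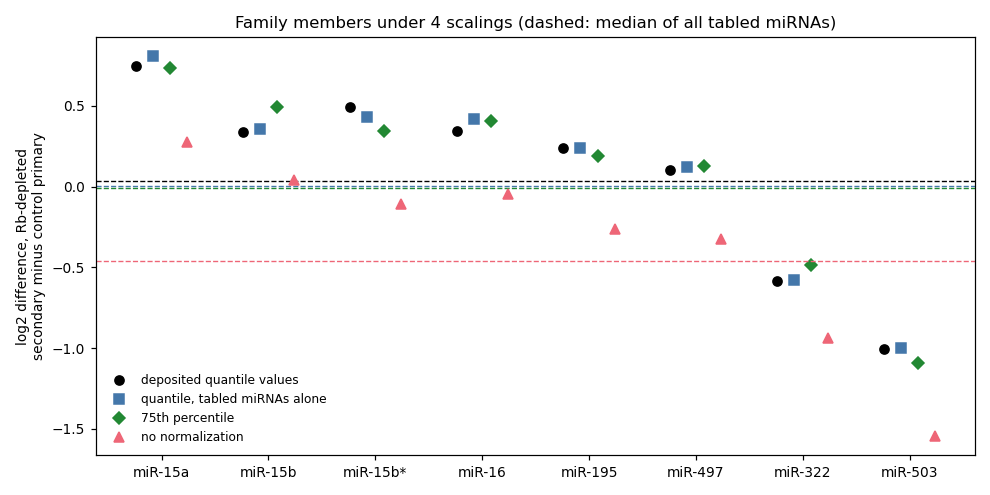
Difference in log2 level between Rb-depleted secondary and control primary cells (y axis) for the 8 tabled members under 4 scalings of the arrays. Dashed lines mark the median of all 252 miRNAs under each scaling. Without normalization that median is at -0.46, miR-15a stays above 0 at 0.28, miR-322 and miR-503 stay below 0, and miR-15b*, miR-16, miR-195 and miR-497 change sign.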

How the data were processed

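MicroRNAs were measured with 1-colour Agilent mouse miRNA arrays on 7 samples. Per the file headers, spots were read with Feature Extraction 11.0.1.1, whereas the submitters' processing notes name version 10.7.3.1. The deposited scanner files hold the linear intensity of each miRNA (total gene signal, set to 0.1 where undetected). The authors also deposited a table of log2 values, quantile-normalized in GeneSpring GX 12.6.1, with 252 mouse miRNAs detected on all arrays and 11 control rows, which were left out. Its older names were matched to the scanner files by recomputing the quantile values over 718 features (tolerance 0.001). Names of arrays in the table gave each column's sample.

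The log2 values of all 252 miRNAs were fitted with limma 3.58.1 in R 4.3.3 (group means, 7 arrays, empirical Bayes, Benjamini-Hochberg over the table, threshold 0.05), after tests on simulated data. The F-test threshold was 0.1. Differences between 2 members within an array were compared by exact permutation tests. Python 3.11.15, numpy 2.4.6, pandas 2.3.3, matplotlib 3.10.9 and statmod 1.5.0 were also used. Members are all arms of the 7 hairpins, with their cluster neighbours, miR-103 and miR-107, and the 3 miRNAs most correlated with miR-16 and with miR-322. Members and lists were chosen with earlier results of these data known. Loci came from hairpin or mature sequences matched to NCBIM37 with GENCODE annotation. The number of arrays limits the precision. Alternatives were 3 other scalings, floors of 1 and 5 with 312 miRNAs, classical tests, a replicate block, slide as a term, array weights and leaving out each array. A fit of the primary arrays alone was added after seeing the data.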

Additional observations from a re-analysis of the deposited data

Results flagged for a closer look

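A neighbour of miR-322 and miR-503 that was not in the normalized table, miR-450b-5p, gave a scanner signal of 4.40 on Rb-depleted secondary replicate 2. It was not detected on either control array nor on the other 4 Rb-depleted arrays. The value lies close to the lowest detected signal of that array (3.81), and the same array had the highest secondary signals of miR-322, miR-503 and miR-450a-5p.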

How the results depend on the processing

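Calls on the family depended on single arrays and on the scaling, so they are limited by 2 or 3 arrays a group. Where an array left out leaves 1 in its group, that array is assumed to vary like the other groups. With slide as a term, differences of secondary cells likewise rest on secondary replicate 1 alone. No other group has a replicate 3, so the replicate block gives the same differences of secondary cells as leaving out secondary replicate 3. The count of miRNAs past the F-test was 109 and that of members 2. Members numbered 1 after 75th-percentile scaling, without normalization, after quantile normalization of the tabled miRNAs alone and with a floor of 1. They numbered 4 with array weights. Without normalization 58.7% of all miRNAs passed. No such share is given for the other settings just named, so their member counts describe the processing alone. With the classical test 62 miRNAs and 0 members passed, with slide as a term 24 and 0, and with the replicate block 6 and 0. Leaving out 1 array gave 33 to 124 miRNAs and 0 to 5 members.

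For Rb-depleted primary against control, 4 miRNAs were called, but 0 after 75th-percentile scaling, with a floor of 1, with the replicate block, with slide as a term and with the primary arrays alone, 8 with array weights, 9 with a floor of 5, 27 without normalization and 0 to 22 with 1 array left out. For secondary against control, 57 were called, but 29 after 75th-percentile scaling, 114 without normalization, 34 with the classical test, 6 with slide as a term, 4 with the replicate block and 1 to 74 with 1 array left out. The count of members there was 1, but 0 under 75th-percentile scaling, both floors, the classical test, the replicate block and slide as a term, 3 with array weights and 0 to 4 with 1 array left out. For secondary against primary Rb-depleted cells, 51 were called, but 15 with the classical test, 0 with the replicate block and with slide as a term, and 2 to 66 with 1 array left out, and members numbered 0, but 1 with array weights and 0 to 2 with 1 array left out. For secondary cells the count of all miRNAs called with array weights is not given, so member counts under it describe the processing alone. The share of calls that were higher in secondary against control cells was 57.9%. It was 31.0% after 75th-percentile scaling and 4.39% without normalization.

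Signs turned as follows. Without normalization, Rb-depleted primary against control became -0.13 for miR-15a, -0.046 for miR-195 and -0.063 for miR-497, and secondary against control became -0.11 for miR-15b*, -0.047 for miR-16, -0.26 for miR-195 and -0.32 for miR-497. With slide as a term the last 2 were -0.11 and -0.10, and with the replicate block miR-322 in secondary against primary Rb-depleted cells was 0.15. With 1 array left out, Rb-depleted primary against control ran from -0.018 to 0.10 for miR-15a, -0.087 to 0.38 for miR-15b, -0.025 to 0.26 for miR-16 and -0.12 to 0.047 for miR-503, miR-497 in secondary against control from -0.053 to 0.20, and miR-322 in secondary against primary Rb-depleted cells from -0.63 to 0.15. Without normalization and after 75th-percentile scaling, which give the same gap within an array, miR-15b minus miR-16 became 0.087 in secondary against control and 0.079 in secondary against primary Rb-depleted cells, and miR-15b minus miR-15b* became 0.0088 in Rb-depleted primary and 0.15 in secondary against control. After quantile normalization of the tabled miRNAs alone, miR-15b minus miR-16 was -0.048 in Rb-depleted primary against control. With 1 array left out, miR-15a minus miR-16 in Rb-depleted primary against control ran from -0.17 to 0.019, and miR-15b minus miR-16 from -0.23 to 0.28 there, -0.26 to 0.25 in secondary against control and -0.22 to 0.16 in secondary against primary Rb-depleted cells. The cause was not tested.

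Of 409 alternative values for 25 differences of named miRNAs, 361 kept their direction and their side of the threshold, 18 turned sign, 17 gained a call and 13 lost one. All 13 were the call of miR-15a in secondary against control cells, whose adjusted p (limma, or the classical test where named) was 0.0623 after 75th-percentile scaling, 0.200 without normalization, 0.0558 and 0.0512 with floors of 1 and 5, 0.105 with the classical test, 0.183 with the replicate block and 0.0751 with slide as a term. It was 0.0106 with array weights.

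Correlations of same-numbered deviations from the group means were -0.14 to 0.13, so no pairing by replicate number was seen. Deviations within each primary group mirror each other. Control and Rb-depleted primary arrays therefore gave the same value for both replicate numbers, and the values are not separate checks. With so few arrays they cannot exclude that same-numbered arrays came from the same experiment.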
